A study of Mus musculus with 9 samples.

Results

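Amino acid transporters carry amino acids and a few related small molecules across the plasma membrane and across the membranes of lysosomes and vesicles. The genes described here were those whose symbol begins with Slc1a, Slc3a, Slc6a, Slc7a, Slc36a, Slc38a or Slc43a. They were taken from the array's probe sets, sets of short probes read as 1 measurement, that carried exactly 1 gene symbol. This gave 125 of the 45101 probe sets. Where a gene had several, only its brightest on average over the 9 arrays was kept, which left 63 of the 18193 genes measured. Of these, 58 encode a carrier or carrier subunit of a named transporter class. The other 5 are the orphan members Slc6a16 and Slc6a21, and Slc6a19os, Slc7a6os and Slc36a1os, named only for lying on the strand opposite a carrier gene.

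Messenger RNA had been measured on 3 arrays in each of 3 groups of sorted bone marrow cells from mice aged 6 weeks. LSK cells (lineage-negative, cKit+, Sca1+) are enriched for blood stem cells and early progenitors, here only from wild-type (WT) mice. Progenitors of granulocytes and monocytes (GMP), sorted as lineage-negative, cKit+, Sca1-, CD34+ and positive for the Fc gamma receptors II/III, came from WT mice and from mice without nicastrin (NcstnKO), a subunit of the gamma-secretase complex that cleaves Notch receptors. Both genotypes carried Ncstn flox/flox, and only the knockouts also carried Mx1-cre, a recombinase gene under an interferon-inducible promoter that is active in many cell types. All mice, WT included, had been given 3 injections of polyIC, the inducer of that promoter, every other day (20 µg per g, the first at an age of 14 days). Cells were sorted 4 weeks after that treatment. Each array was made from amplified RNA, 5 ng of total RNA per sample. No source used here says that the 3 arrays of a group came from separate mice, so p-values measure only the spread between these samples.

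Amino acid carriers differ in what they use as a driving force. The SLC1, SLC6 and most SLC38 proteins couple uptake to sodium, and some SLC36 proteins couple it to protons. The SLC7 light chains exchange amino acids across the membrane once joined to an SLC3 heavy chain. In blood cell progenitors amino acid carriers supply protein synthesis and heme production. Some lysosomal members take part in signalling amino acid supply to the mTORC1 kinase complex.

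Some arrays went against their labels, and this touches every comparison with GMP. By Xist and the Y-linked Eif2s3y, WT GMP arrays 2 and 3, labelled female, carried male transcripts, and NcstnKO arrays 2 and 3, labelled male, carried female transcripts. By these transcripts all 3 NcstnKO arrays were female, beside 1 of 3 in each other group. Results are therefore also given without those 4 arrays, by gene for the calls between genotypes and mostly as counts against LSK. This leaves 1 array in each GMP group and only the LSK arrays to measure spread. The log2 intensity of Ncstn was 7.76 to 7.79 in NcstnKO GMP, 9.25 to 9.31 in WT GMP and 8.99 to 9.13 in LSK, with no overlap between the knockouts and the other arrays. Median intensities ran from 98.3 to 103 in LSK but from 65.4 to 68.6 in GMP, a gap in overall scale that bears on each comparison with LSK. Of 12 GMP markers, 10 were higher and 1 was lower in WT GMP than in LSK. Of 16 LSK markers 14 were lower and 0 were higher, where 7.48% of all genes were higher and 30.5% lower. Neither GMP nor LSK markers passed the test between the genotypes (0 of 12 and 0 of 16), where 5.70% of all genes did. Both lists include Cd34, which was also used to sort the GMP.

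All levels below are log2 of the deposited intensity of a probe set, and levels of different probe sets are not comparable with each other. A background limit was set for each array from 27 bacterial control probe sets without spiked RNA, as their 95th percentile (4.30 to 4.57). A group counted as at background where none of its arrays, or not their mean, exceeded that limit. By this limit, set with the data known, 41 of the 63 transporter genes were above background in all 3 groups and 9 were at background in all of them. The 9 were Slc6a14, Slc6a19, Slc6a19os, Slc6a20b, Slc6a21, Slc7a9, Slc7a12, Slc36a1os and Slc38a4. The other 13 were above it in some groups, and the number above it was 48 in LSK, 49 in WT GMP and 46 in NcstnKO GMP. Over the 41, the median SD between arrays of a group was 0.202, beside 0.169 over the 13547 genes above background in every group. Differences were tested with limma on all 9 arrays, p-values were adjusted by Benjamini-Hochberg over the 18193 genes, and a gene with an adjusted p under 0.05 was called. Every adjusted p below comes from that fit unless another is named.

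Loss of nicastrin came with lower RNA of 3 neutral amino acid and nucleobase carriers in GMP and higher RNA of 1 glutamate carrier. Slc38a5 was 4.78-fold lower, Slc43a1 1.85-fold lower and Slc43a3 1.41-fold lower in NcstnKO than in WT GMP, and Slc1a2 was 1.81-fold higher. These were the 4 called of 63, 1 higher and 3 lower, a share of 6.35% where 5.70% of all genes were called (2.44% higher and 3.26% lower). The share of transporter genes called was thus near that of all genes. Their median difference was 0.00 on the log2 scale, beside 0.06 over all genes. In 17 of the 63 the genotypes did not overlap, 8 higher and 9 lower in NcstnKO, where 31.9% of all genes did not overlap (18.5% higher and 13.4% lower). No heavy chain, light chain, cationic carrier, SLC36 or SLC6 gene was called.

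Slc38a5 encodes a sodium-coupled carrier of glutamine, serine, glycine, asparagine and histidine, and lies on chromosome X. Its log2 intensity was 9.34, 9.42 and 9.85 in the 3 LSK arrays, 8.95, 7.27 and 8.23 in WT GMP and 5.73, 5.68 and 6.27 in NcstnKO GMP. The groups did not overlap, LSK was highest, and WT GMP array 2 lay closest to the knockouts. The difference between genotypes was −2.26 (SE 0.38, limma adjusted p = 0.0230, 3 arrays a group). It was called under 11 of 19 alternatives and ran from −3.22 to −1.86 over them. Without WT GMP array 3 the adjusted p was 0.0975, and without NcstnKO arrays 1, 2 or 3 it was 0.0508, 0.0501 and 0.0521.

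Slc43a1 encodes a sodium-independent carrier of leucine and other large neutral amino acids. Its log2 intensity was 8.72, 9.15 and 8.80 in LSK, 8.29, 7.76 and 8.18 in WT GMP and 6.98, 7.20 and 7.37 in NcstnKO GMP. Every NcstnKO array lay below every WT GMP array, and every WT GMP array below every LSK array. The difference between genotypes was −0.89 (SE 0.18, limma adjusted p = 0.0308). The call was lost without WT GMP array 1 (adjusted p = 0.0691) or 3 (0.121) and without NcstnKO array 1 (0.0709), 2 (0.0652) or 3 (0.0601).

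Slc43a3, of the same family, is known as a carrier of purine nucleobases rather than of amino acids. The arrays read 11.79, 11.73 and 11.88 in LSK, 11.70, 11.67 and 11.92 in WT GMP and 11.12, 11.37 and 11.30 in NcstnKO GMP. LSK and WT GMP overlapped, and the 3 knockout arrays lay below both. The difference was −0.50 (SE 0.10, adjusted p = 0.0366). It was called under 6 of 19 alternatives, and of the arrays only LSK array 2 could be left out without losing the call (adjusted p up to 0.131). The family's remaining gene Slc43a2, a carrier of the same large neutral amino acids as Slc43a1, differed by −0.37 between genotypes and was not called (adjusted p = 0.399).

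Slc1a2 encodes the main glutamate carrier of astrocytes. It read 5.37, 5.47 and 5.63 in LSK, 5.26, 5.41 and 5.04 in WT GMP and 6.13, 5.66 and 6.51 in NcstnKO GMP. All 3 knockout arrays lay above both other groups, with a wide spread among them. The difference was 0.86 (SE 0.20, adjusted p = 0.0458), and it was called under 3 of 18 alternatives. The array carries 4 other Slc1a2 probe sets, whose differences were 0.01, 0.02, 0.26 and 0.10, and the mean of all 5 differed by 0.25 (adjusted p = 0.127). Of those 4, the one at 0.26 was above the limit on 9 of 9 arrays, with means of 5.03 in WT and 5.28 in NcstnKO GMP. Its limma adjusted p over all probe sets was 0.229, beside 0.0706 for the probe set used, so it did not show a rise of that size. The others were above the limit on 0 of 9 arrays, so their differences, and the mean that includes them, say little about the 0.86. Of the arrays, only NcstnKO array 2 could be left out without losing the call (adjusted p up to 0.162).

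**Figure D1:**
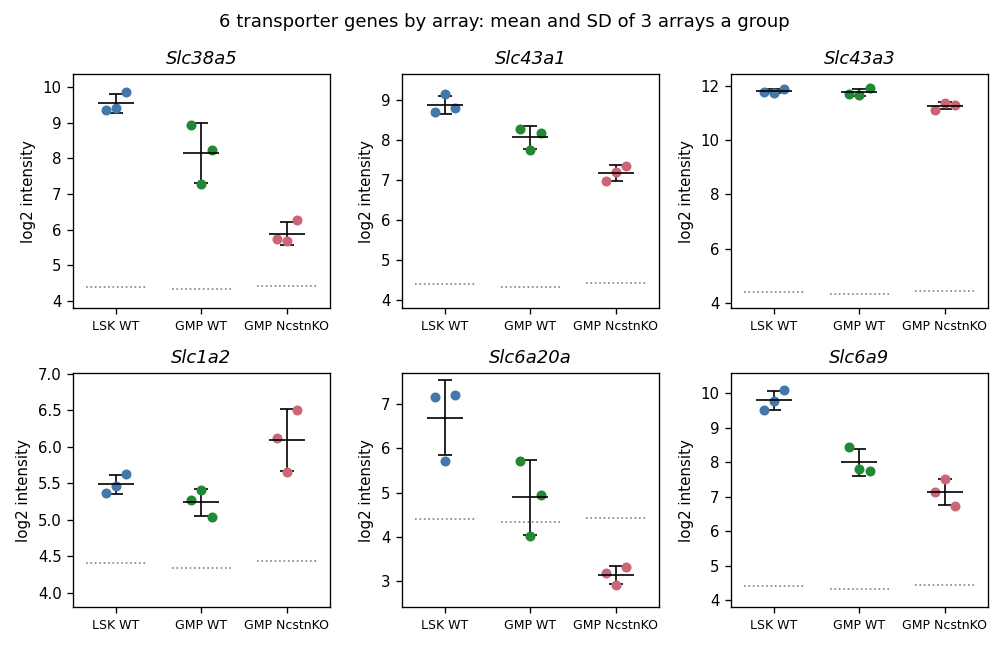
Log2 intensity of 6 transporter genes in the 9 arrays, a panel per gene with its own axis, 1 point per array, group mean and SD over 3 arrays, and the mean background limit of the group as a dotted line. Slc38a5 and Slc43a1 step down from LSK to WT GMP to NcstnKO GMP, Slc1a2 is higher in the knockouts, and Slc6a20a lies below the dotted line in all 3 of them. Slc6a20a and Slc6a9 were not called between genotypes.

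The SLC6 carriers Slc6a20a and Slc6a9 were lower in every knockout array than in any WT GMP array but did not pass the test. The other glycine carrier Slc6a5 and the proline carrier Slc6a7 overlapped between genotypes, with differences of 0.15 and 0.10. Slc6a20a, a carrier of proline and other imino acids, read 7.16, 5.71 and 7.20 in LSK, 5.72, 4.02 and 4.95 in WT GMP and 3.18, 2.91 and 3.31 in NcstnKO GMP. The 3 knockout arrays were at background. The measured difference between group means of 4.90 and 3.14 was −1.76 (adjusted p = 0.0681), which is at least 1.38-fold lower. Such lower bounds set the brighter group's mean against the mean, over the dimmer group's arrays, of the higher of the background limit and the measured signal. Slc6a9, the glycine carrier that supplies glycine for heme in erythroid cells, read 9.53, 9.77 and 10.08 in LSK, 8.45, 7.80 and 7.74 in WT GMP and 7.15, 7.52 and 6.74 in NcstnKO GMP. The 3 groups did not overlap, and its difference between genotypes was −0.86 (adjusted p = 0.0807). Its other probe set differed by −0.08.

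Other members with separated genotypes and no call included Slc1a5, the main glutamine carrier of growing cells, at 0.68 (adjusted p = 0.169). Slc7a6os, named only for lying opposite Slc7a6, differed by 1.04 (adjusted p = 0.0770), while its other probe set differed by −0.19. The sodium-coupled glutamine carrier Slc38a1 differed by −0.29 (adjusted p = 0.0834), the arginine carrier Slc7a1 by −0.18 (adjusted p = 0.208), and the taurine carrier Slc6a6 by −0.22 (adjusted p = 0.185).

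The knockout results depended on which arrays entered the fit. Fitted on the 6 GMP arrays alone, 0 of 63 were called and 13 had an unadjusted limma p under 0.05, beside 14 in the fit to 9 arrays, where 24.4% of all genes had one. Without the 4 arrays at odds with their labels 0 were called and 9 had an unadjusted p under 0.05. These fits called few genes of any kind, 6 of 18193 with the GMP arrays alone and 1 without the 4 arrays. Slc38a5 then differed by −3.22 (adjusted p = 0.133), Slc43a1 by −1.31 (0.293), Slc43a3 by −0.57 (0.400) and Slc1a2 by 0.86 (0.326). With a term for the sex of the transcripts 0 were called and 11 had an unadjusted p under 0.05, and 2 of all genes were called.

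Erythroid markers were also lower in the knockouts. Of 19 measured markers of red cell precursors, 10 were lower and 0 higher in NcstnKO than in WT GMP, with a median of −1.59. Their summed level, as log2, was 15.37, 15.44 and 15.68 in LSK, 15.07, 14.20 and 14.92 in WT GMP and 13.16, 12.99 and 13.66 in NcstnKO GMP. Klf1, the defining erythroid factor, was among the 10 with Epor, Ermap, Aqp1, Car1, Car2, Rhd, Ank1, Tspo2 and Kel. Hba-a1 was at background in every group, and Epb42 in NcstnKO GMP. Their part in the transporter results was not tested. In bulk samples, fewer cells of a type and less RNA per cell cannot be told apart. On the 6 GMP arrays alone, and without the 4 arrays at odds with their labels, 0 of the 19 markers were called, with medians of −1.59 and −2.35.

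**Figure D2:**
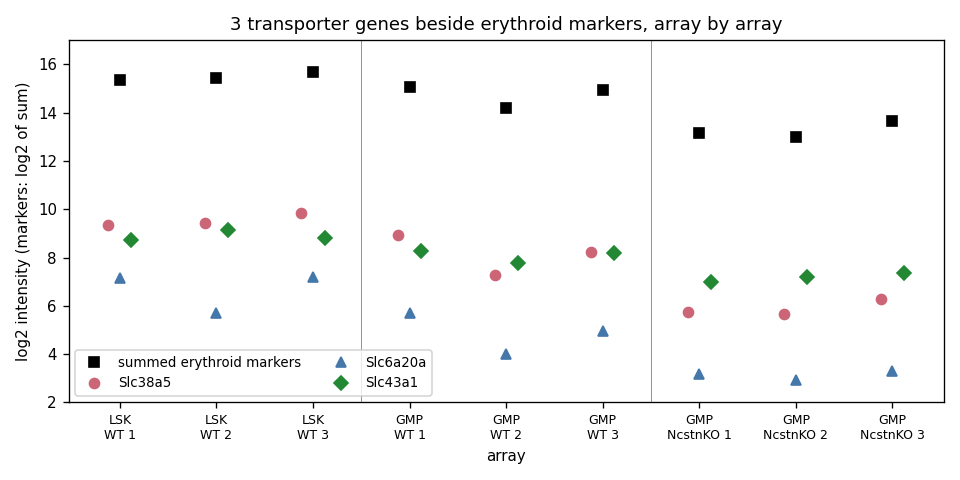
Level of Slc38a5, Slc43a1 and Slc6a20a (log2 intensity) and the log2 of the summed intensity of 19 erythroid markers, with the 9 arrays on the x axis and 1 point per array. All 3 genes and the marker sum are lower in each NcstnKO array than in any other array, and the 3 NcstnKO values of Slc6a20a are below the background limit.

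Some markers of other cell types and a sign of RNA quality also differed between the genotypes. Of 15 late neutrophil markers 1 (Camp) was higher, with a median of 0.60, and their summed level was 15.33 to 15.70 in WT and 15.82 to 16.07 in NcstnKO GMP. Of 11 megakaryocyte markers 3 were lower, with summed levels of 12.66 to 13.02 and 12.25 to 12.66, and of 12 macrophage markers 3 were lower, with summed levels of 11.71 to 12.30 and 11.71 to 12.45. Gp6 and Cd5l were at background in both genotypes. Of 11 T and NK cell markers 1 was lower, and of 12 B-lymphoid, 13 mast cell, basophil and eosinophil and 10 stromal and endothelial markers 0 were called. Of all genes 2.44% were higher and 3.26% lower, so a single call in a short list says little about that cell type. On the 6 GMP arrays alone, 1 macrophage marker was called and 0 of the neutrophil, megakaryocyte and T and NK cell markers. That fit called 6 of all 18193 genes. For Actb, the control probe set at the 3′ end exceeded that at the 5′ end, a sign of RNA or amplification quality, by a log2 difference of 0.50 to 0.70 in WT and 0.81 to 1.06 in NcstnKO GMP. The part of these differences in the transporter results was not tested.

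The stretches before the transcription start of the transporter genes are shown for the 2 most clearly lowered genes and for Slc7a11, whose promoter is a textbook target of the amino acid response. Each line gives 250 bases from RefSeq, build GRCm38.p6, read 5′ to 3′ on the gene's strand and ending at the base before the start. The array files name no build. Capitals mark the matches to CACGTG, the E-box bound by factors such as Myc and Tfe proteins, in Slc38a5 (chrX:8271131-8271380, plus strand, 30 bases before the start) and Slc43a1 (chr2:84840073-84840322, plus strand, 64 bases before it). In Slc7a11 (chr3:50443614-50443863, minus strand) they mark 2 matches to TGATGNAA, the core bound by ATF4 with a C/EBP partner, which begin 66 and 47 bases before the start, the nearer on the opposite strand.
Slc38a5: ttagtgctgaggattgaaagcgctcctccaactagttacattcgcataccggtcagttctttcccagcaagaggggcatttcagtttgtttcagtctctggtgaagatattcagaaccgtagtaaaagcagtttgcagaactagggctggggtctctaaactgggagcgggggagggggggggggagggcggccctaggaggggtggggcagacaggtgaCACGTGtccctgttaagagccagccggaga
Slc43a1: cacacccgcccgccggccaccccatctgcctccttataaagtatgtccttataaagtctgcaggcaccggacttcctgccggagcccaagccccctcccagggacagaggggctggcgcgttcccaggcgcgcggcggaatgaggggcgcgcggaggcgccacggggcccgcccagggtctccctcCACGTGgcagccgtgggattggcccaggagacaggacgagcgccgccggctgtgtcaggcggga
Slc7a11: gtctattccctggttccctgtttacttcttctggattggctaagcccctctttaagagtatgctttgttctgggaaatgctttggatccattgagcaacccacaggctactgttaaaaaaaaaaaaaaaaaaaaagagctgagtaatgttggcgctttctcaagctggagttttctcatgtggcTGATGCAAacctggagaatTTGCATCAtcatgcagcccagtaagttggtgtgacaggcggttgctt
Both strands of 67 windows from 46 of the transporter genes, several for a gene with more than 1 start, were searched, beside all 32841 windows of the table. CACGTG was in 9 member windows (13.4%) and in 6.02% of all windows. The 9 genes were Slc1a6, Slc1a7, Slc36a1, Slc38a5, Slc38a7, Slc43a1, Slc6a3, Slc6a16 and Slc7a14. TGATGNAA was in 4 member windows (5.97%), of Slc6a21, Slc7a7 and Slc7a11, and in 3.45% of all. AGATAA, the core bound by GATA factors, was in 4 member windows (5.97%), of Slc3a1, Slc7a7 and Slc7a9, and in 9.99% of all. No match of one motif overlapped a match of another in the same window, and a match describes the sequence only.

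Between WT LSK and WT GMP, the transporter genes differed more widely than between the genotypes. Calls went both ways, and 3 of the 4 SLC36 genes were higher in GMP. The glutamate carrier Slc1a1 was 14.4-fold lower in GMP and the branched-chain amino acid carrier Slc6a15 5.57-fold lower, while the proton-coupled carrier Slc36a2 was 4.50-fold higher. In all, 28 of 63 were called, 9 higher and 19 lower in GMP, which is 44.4% where 38.0% of all genes were called (7.48% higher and 30.5% lower). The share called lower was thus near that of all genes. In 35 of the 63 the groups did not overlap, 13 higher and 22 lower, where 54.6% of all genes did not overlap (13.2% higher and 41.5% lower). The median difference was −0.09, beside −0.18 over all genes.

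The split of calls depended on how the arrays were scaled. With quantile-normalized values 16 transporter genes were higher and 9 lower, and the median of all genes was 0.05. With each array's 75th percentile set to a common value 25 were higher and 10 lower, and the median of all genes was 0.17. Under all 3 scalings 17 were called with an unchanged sign. The 9 higher were Slc36a1, Slc36a2, Slc36a4, Slc7a2, Slc7a13, Slc6a2, Slc6a11, Slc6a16 and Slc38a6, and the 8 lower were Slc1a1, Slc1a4, Slc6a3, Slc6a4, Slc6a9, Slc6a15, Slc6a17 and Slc43a2. Over all genes 7.40% were higher and 12.3% lower in all 3 scalings. After quantile normalization 6404 of all genes were called, and after centring 8558. Without the 4 GMP arrays at odds with their labels 11 of 63 were called, and without WT GMP array 2 it was 18. The same fits called 2383 and 5454 of all 18193 genes, beside 6910 with every array.

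**Figure D3:**
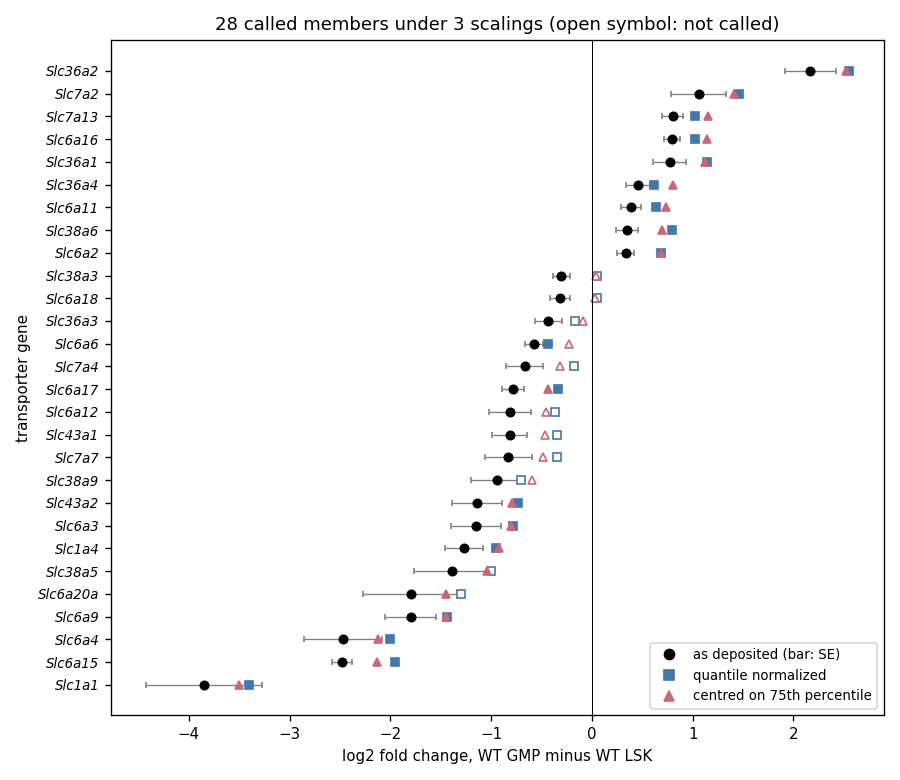
Log2 fold change of WT GMP over WT LSK for the 28 transporter genes called on the deposited scale, with its standard error as a bar, and the same value from quantile-normalized arrays and from arrays centred at their 75th percentile. Filled symbols were called and open symbols were not. Every symbol moves to the right under the other scalings, and Slc38a3 and Slc6a18 cross 0.

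All 4 SLC36 genes were called, 3 higher and 1 lower in WT GMP than in LSK. Without the 4 arrays at odds with their labels, Slc36a2 differed by 2.37, Slc36a1 by 0.69, Slc36a4 by 0.37 and Slc36a3 by −0.27. Slc36a2, a proton-coupled carrier of glycine, alanine and proline, read 4.66, 4.88 and 5.46 in LSK, 7.37, 6.80 and 7.34 in WT GMP and 7.40, 7.49 and 8.04 in NcstnKO GMP. Both GMP groups lay well above LSK. The difference of WT GMP from LSK was 2.17 (SE 0.26, adjusted p = 3.64e-04).
Slc36a1, which moves small neutral amino acids out of lysosomes and is tied to mTORC1 signalling, read 9.22, 8.92 and 9.11 in LSK, 9.78, 9.98 and 9.81 in WT GMP and 9.32, 9.96 and 9.82 in NcstnKO GMP. Again no GMP array reached down to LSK. The difference was 0.77 (SE 0.16, adjusted p = 0.00684). Slc36a4, a high-affinity carrier of proline and tryptophan, read 10.71, 10.78 and 10.89 in LSK, 11.16, 11.29 and 11.28 in WT GMP and 11.30, 11.25 and 10.90 in NcstnKO GMP. It differed by 0.45 (adjusted p = 0.0161), without overlap. Its call was lost without LSK array 1 (adjusted p = 0.0540) or WT GMP array 2 (0.0521) or 3 (0.0515). Slc36a3, at background in both GMP groups, was at least 1.08-fold lower in WT GMP (means 4.45 and 4.01, adjusted p = 0.0330), a call lost under both other scalings and without LSK array 1 or 2 or WT GMP array 2 or 3 (adjusted p up to 0.102).

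Among the SLC1 carriers 2 of 7 were called, both lower in WT GMP. Slc1a1, a carrier of glutamate, aspartate and cysteine, read 9.63, 9.65 and 8.24 in LSK, 5.38, 5.84 and 4.75 in WT GMP and 5.98, 3.86 and 4.62 in NcstnKO GMP. The lowest LSK array, array 3, was still far above every GMP array, and NcstnKO array 2 was below the background limit. The difference of WT GMP from LSK was −3.85 (SE 0.57, adjusted p = 0.00118). The other Slc1a1 probe sets differed by −1.25 (adjusted p over all probe sets 0.278) and −0.53 (0.0209), and the mean of all 3 by −1.87. Slc1a4, a carrier of alanine, serine and cysteine, read 9.94, 10.33 and 9.68 in LSK, 8.83, 8.52 and 8.79 in WT GMP and 8.52, 8.97 and 8.97 in NcstnKO GMP. The GMP groups overlapped each other and not LSK, and WT GMP differed from LSK by −1.27 (SE 0.19, adjusted p = 0.00119).

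The SLC6 amino acid carriers included 5 lower and 0 higher of 10. Slc6a15, a carrier of branched-chain amino acids and proline, read 7.09, 6.91 and 7.02 in LSK, 4.55, 4.56 and 4.48 in WT GMP and 4.23, 4.35 and 4.55 in NcstnKO GMP. LSK stood clear of the limit, and both GMP groups lay close to it. The difference was −2.48 (SE 0.10, adjusted p = 4.48e-06). The glycine carrier Slc6a9, whose values are given above, differed by −1.80 (SE 0.25, adjusted p = 8.87e-04), while its other probe set differed by −0.05. The imino acid carrier Slc6a20a differed by −1.79 (SE 0.48, adjusted p = 0.0187), with LSK array 2 just below WT GMP array 1. Its call was lost without LSK array 1 (adjusted p = 0.0633) or 3 (0.0589) or WT GMP array 2 (0.0565), and under quantile normalization (−1.30, adjusted p = 0.0660). Slc6a17, which loads neutral amino acids into vesicles, differed by −0.78 (adjusted p = 9.89e-04), and Slc6a18, a kidney carrier of neutral amino acids, by −0.32 (adjusted p = 0.0305). The last of these changed sign under both other scalings (0.047 and 0.033) and was not called without LSK array 1 or 2 or WT GMP array 1 or 2 (adjusted p up to 0.0980).

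All 3 monoamine carriers of the SLC6 family were called. The serotonin carrier Slc6a4 read 7.04, 6.71 and 5.84 in LSK, 3.84, 4.39 and 3.94 in WT GMP and 3.74, 3.94 and 5.04 in NcstnKO GMP. Both GMP groups were at background, though WT GMP array 2 and NcstnKO array 3 each exceeded their own array's limit. It was at least 4.58-fold lower in WT GMP than in LSK, from a measured difference of −2.47 between means of 6.53 and 4.06 (SE 0.39, adjusted p = 0.00158). The dopamine carrier Slc6a3 read 5.80, 5.20 and 4.95 in LSK, 4.64, 3.94 and 3.91 in WT GMP and 3.90, 4.08 and 3.89 in NcstnKO GMP. Only WT GMP array 1 rose above the limit among the GMP arrays. It was at least 1.83-fold lower in WT GMP, from means of 5.32 and 4.16 (measured difference −1.15, adjusted p = 0.00711). Without the 4 arrays at odds with their labels the measured difference was −0.68. The noradrenaline carrier Slc6a2 was higher in WT GMP by 0.34 (adjusted p = 0.0128), while its 3 other probe sets differed by −0.19, −0.11 and 0.00.

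Of the 5 carriers of GABA, taurine, creatine and betaine, 1 was higher and 2 lower. The taurine carrier Slc6a6 differed by −0.57 (adjusted p = 0.00171) and the betaine carrier Slc6a12 by −0.81 (adjusted p = 0.0157). Both kept a negative sign under the other scalings, and only Slc6a6 was still called after quantile normalization. The call of Slc6a12 was lost without LSK array 3 (adjusted p = 0.0506) or WT GMP array 2 (0.0511). The GABA carrier Slc6a11 read 4.05, 4.00 and 4.26 in LSK, where it was at background, 4.49, 4.60 and 4.37 in WT GMP and 4.42, 4.56 and 4.41 in NcstnKO GMP. It was at least 1.06-fold higher in WT GMP (means 4.10 and 4.49, adjusted p = 0.0177), close to the limit throughout. Its call was lost without LSK array 1 or 2 or WT GMP array 2 (adjusted p up to 0.0645), and the mean of its probe sets differed by −0.035. The orphan Slc6a16 read 3.71, 3.68 and 3.73 in LSK, 4.49, 4.43 and 4.59 in WT GMP and 4.54, 4.43 and 4.54 in NcstnKO GMP. It was at background in LSK and at least 1.07-fold higher in WT GMP (means 3.71 and 4.51, adjusted p = 1.83e-04).

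**Figure D4:**
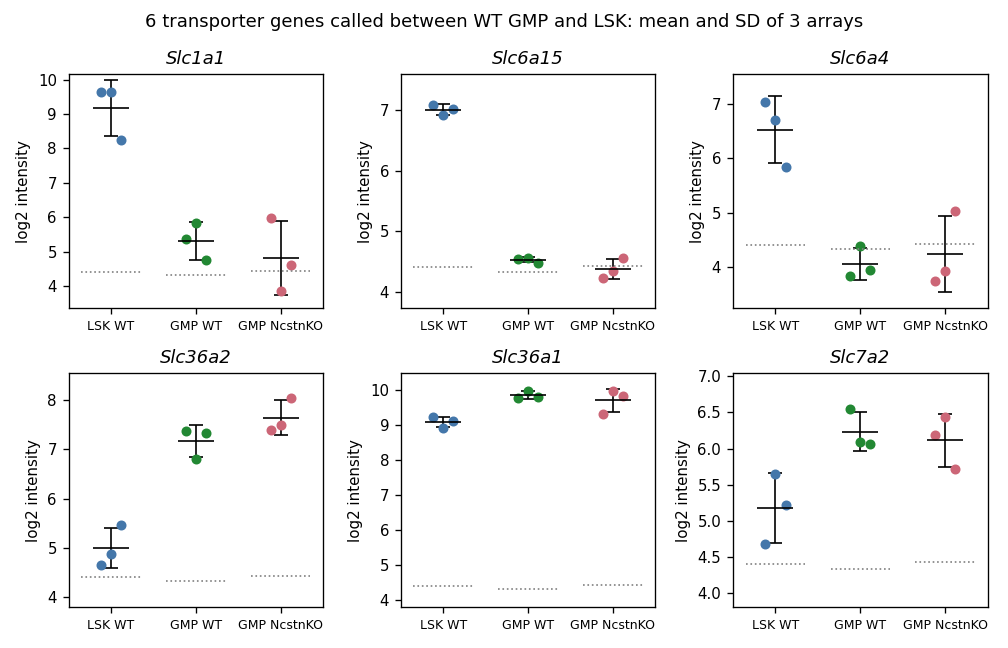
Log2 intensity of 6 transporter genes called between WT GMP and WT LSK, a panel per gene with its own axis, 1 point per array, group mean and SD over 3 arrays, and the mean background limit as a dotted line. Slc6a15 and Slc6a4 are high in LSK and near or below the dotted line in most GMP arrays. Slc1a1 is high in LSK too, and its GMP arrays spread from 3.86 to 5.98, most of them above the line. Slc36a2, Slc36a1 and Slc7a2 are higher in both GMP groups than in LSK.

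Of the 9 SLC38 carriers 1 was higher and 3 were lower in WT GMP. Slc38a5, given above, differed by −1.39 (SE 0.38, adjusted p = 0.0193). After quantile normalization it differed by −1.01 and was not called (adjusted p = 0.0679), and without LSK array 3 the adjusted p was 0.0591. Slc38a9, the lysosomal arginine sensor of mTORC1, differed by −0.95 (adjusted p = 0.0187), and its 6 other probe sets by −0.59 to −1.49. Its call was lost without LSK array 1 (adjusted p = 0.0628) or 3 (0.0551) or WT GMP array 2 (0.0645), and under quantile normalization (−0.71) and centring (−0.60). Slc38a3, a carrier of glutamine and histidine, differed by −0.31 (adjusted p = 0.0197) and changed sign under both other scalings (0.050 and 0.043). It was not called without LSK array 1 or 3 or WT GMP array 1 or 2 (adjusted p up to 0.0624). Slc38a6 read 8.83, 8.76 and 8.52 in LSK, 8.99, 8.99 and 9.16 in WT GMP and 9.11, 9.32 and 9.22 in NcstnKO GMP. It differed by 0.35 (adjusted p = 0.0351), but its other probe set was lower by −0.83, and the mean of both differed by −0.24. Leaving out any of 5 arrays, LSK 2 or 3 or any WT GMP array, lost its call (adjusted p up to 0.114).

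In the SLC43 family 2 of 3 were lower in WT GMP than in LSK. Slc43a2 differed by −1.14 (SE 0.25, adjusted p = 0.00711), and its other probe sets by −0.54 and −1.92. Slc43a1 differed by −0.81 (SE 0.18, adjusted p = 0.00703) and was not called under quantile scaling (−0.35) or centring (−0.47).

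Among the 5 cationic carriers of the SLC7 family 1 was higher and 1 lower. Slc7a2, which takes up arginine, lysine and ornithine, read 4.67, 5.64 and 5.21 in LSK, 6.54, 6.09 and 6.07 in WT GMP and 6.19, 6.44 and 5.71 in NcstnKO GMP. Every GMP array lay above every LSK array. WT GMP differed from LSK by 1.06 (SE 0.27, adjusted p = 0.0151), a call lost without WT GMP array 1 (adjusted p = 0.0546). Its 3 other probe sets were at or below the limit on all 9 arrays. Slc7a4 differed by −0.67 (adjusted p = 0.0193), and was not called under either other scaling, nor without LSK array 1 or 2 or WT GMP array 3 (adjusted p up to 0.0666). Slc7a1 differed by 0.04 (adjusted p = 0.711).

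Heavy and light chains form the exchangers of large neutral, cationic and acidic amino acids. On the deposited scale, most of these chains did not pass the test in any comparison. Slc3a2, the heavy chain that brings most light chains to the surface, read 11.82, 12.05 and 11.50 in LSK, 11.53, 11.68 and 11.33 in WT GMP and 11.50, 11.45 and 11.57 in NcstnKO GMP. The 3 groups overlapped, and its difference was −0.27 between WT GMP and LSK (SE 0.15, adjusted p = 0.177) and −0.01 between genotypes (SE 0.15, adjusted p = 0.982).
Slc7a5, the leucine exchanger of growing cells, read 11.01, 11.28 and 11.23 in LSK, 11.26, 11.06 and 11.07 in WT GMP and 10.78, 11.00 and 10.93 in NcstnKO GMP. All knockout arrays lay just below both other groups, with a difference between genotypes of −0.23 (SE 0.11, adjusted p = 0.233). Slc7a6, an exchanger of arginine for glutamine, read 10.39, 10.56 and 10.22 in LSK, 10.45, 10.59 and 10.34 in WT GMP and 10.46, 10.49 and 10.59 in NcstnKO GMP. Its groups overlapped, and the largest of its 3 differences was 0.12, between NcstnKO GMP and LSK. That difference was 0.35 after quantile normalization and 0.50 after centring, and was called in both. WT GMP differed from LSK by 0.42 after centring, also called.
Slc7a8, an exchanger of small and large neutral amino acids, read 9.31, 9.13 and 9.08 in LSK, 9.08, 9.21 and 9.11 in WT GMP and 9.57, 8.91 and 8.64 in NcstnKO GMP. The knockout arrays spread more widely than the others and overlapped them.
Slc7a10, an exchanger of small amino acids including serine, read 4.74, 4.65 and 4.71 in LSK, 4.59, 4.81 and 4.47 in WT GMP and 4.38, 4.75 and 4.55 in NcstnKO GMP, close to the background limit in every group. Slc7a11, the cystine and glutamate exchanger, read 3.81, 3.75 and 3.83 in LSK, 4.17, 3.87 and 4.07 in WT GMP and 4.19, 4.17 and 5.50 in NcstnKO GMP. Of the 9 arrays only NcstnKO array 3 was above the limit, and the difference between genotypes was not called (adjusted p = 0.289). Against LSK, NcstnKO GMP differed by 0.83 and was not called, but was called at 1.03 after quantile normalization and at 1.21 after centring.

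Of the 10 light chains 1 was higher and 1 lower in WT GMP than in LSK. Slc7a7, which exports arginine and lysine and is known from macrophages and intestine, read 8.72, 8.56 and 8.80 in LSK, 7.53, 7.90 and 8.17 in WT GMP and 7.69, 7.74 and 6.93 in NcstnKO GMP. Every GMP array lay below every LSK array, and NcstnKO array 3 was lowest. WT GMP differed from LSK by −0.83 (SE 0.23, adjusted p = 0.0227), which was not called under the other scalings or without LSK array 1 or 3 or WT GMP array 1 or 2 (adjusted p up to 0.0772), and NcstnKO GMP by −1.24 (SE 0.23, adjusted p = 0.00264). Its other probe set differed by −0.85 and −1.02. Slc7a13, a carrier of aspartate and glutamate, read 3.65, 3.70 and 3.75 in LSK, 4.38, 4.42 and 4.69 in WT GMP and 4.34, 4.24 and 4.39 in NcstnKO GMP. It was at background in LSK and at least 1.07-fold higher in WT GMP (means 3.70 and 4.50, adjusted p = 5.52e-04).

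**Figure D5:**
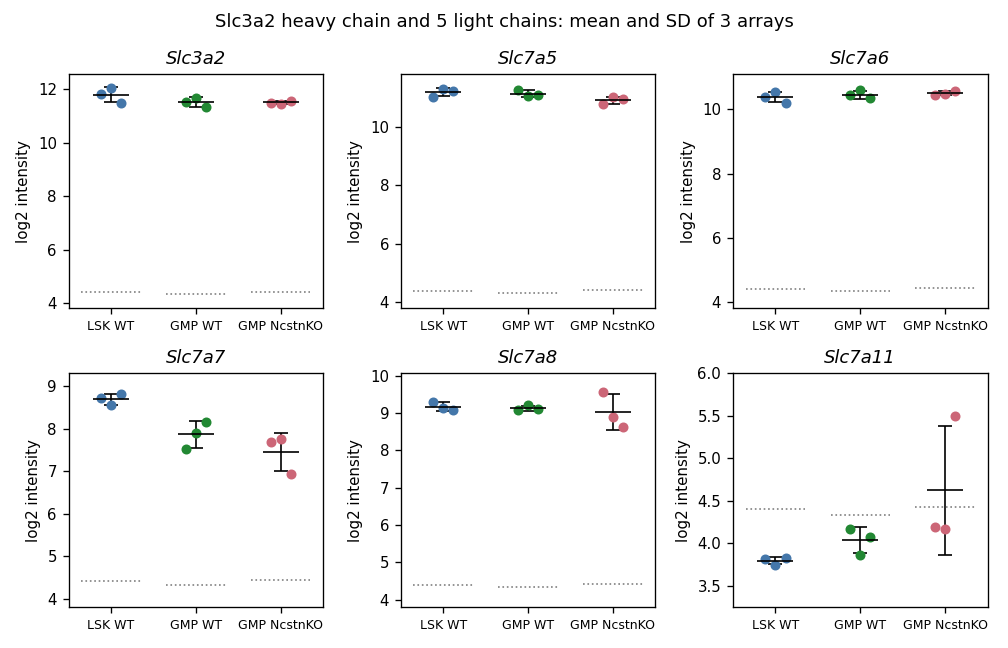
Log2 intensity of the heavy chain gene Slc3a2 and of 5 of its light chain genes in the 9 arrays, a panel per gene with its own axis, 1 point per array, group mean and SD over 3 arrays, and the mean background limit as a dotted line. The groups overlap for Slc3a2, Slc7a6 and Slc7a8, Slc7a7 is lower in both GMP groups than in LSK, and only 1 knockout array of Slc7a11 lies above the dotted line.

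Markers of other cell types differed between WT GMP and LSK as well, where 7.48% of all genes were higher and 30.5% lower. Of the 12 macrophage markers 4 were lower in WT GMP and 0 higher, with summed levels of 11.91 to 12.30 in LSK and 11.71 to 12.30 in WT GMP. Of the 11 megakaryocyte and platelet markers, cells known to take up serotonin, 9 were lower and 0 higher, with summed levels of 13.25 to 13.77 and 12.66 to 13.02. Of the 15 late neutrophil markers 13 were lower and 1 higher, with summed levels of 16.36 to 16.83 and 15.33 to 15.70. Of the 19 erythroid markers 7 were lower and 0 higher, and 3 were lower after quantile normalization. Mast cell, basophil and eosinophil markers were higher in 9 of 13 and lower in 0, with summed levels of 13.51 to 14.12 and 15.34 to 15.61. Lymphoid and B cell markers were lower in 10 of 12 (median −2.12, summed levels 14.10 to 14.70 and 12.26 to 12.77). Of 11 T and NK cell markers 7 were lower and 2 higher (median −1.39), while their summed level was higher in GMP (12.42 to 12.99 and 13.45 to 13.54). Of 10 stromal and endothelial markers 6 were lower and 1 higher (median −1.57, summed levels 11.15 to 12.06 and 9.98 to 10.71). Their part in the transporter differences was not tested.

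NcstnKO GMP were set against the same LSK arrays, and 36 of 63 were called, 14 higher and 22 lower. That is 57.1%, where 46.8% of all genes were called (14.6% higher and 32.3% lower). The 2 comparisons with LSK share the LSK arrays, and those of the genotypes share the GMP arrays, so their values are only set side by side. Under all 3 scalings 27 were called with an unchanged sign, 14 higher and 13 lower, beside 14.5% and 15.9% of all genes. Quantile-normalized values gave 25 higher and 15 lower, and centred values 32 higher and 13 lower. Of all 18193 genes, 9249 were called after quantile normalization and 11164 after centring. The groups did not overlap in 42 of 63, 18 higher and 24 lower, where 56.4% of all genes did not (19.2% and 37.2%). Without the 4 GMP arrays at odds with their labels 17 of 63 were called, and 3593 of all genes, beside 8523 with every array.

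The 3 carriers that fell between the genotypes were all called below LSK in NcstnKO GMP on the deposited scale. Slc38a5 was 12.5-fold below LSK in NcstnKO GMP (−3.65, SE 0.38, adjusted p = 1.29e-04), beside 2.62-fold in WT GMP. Slc43a1 was 3.26-fold below LSK (adjusted p = 1.27e-04), beside 1.76-fold in WT GMP, and Slc43a3 1.45-fold (adjusted p = 0.00317), beside 1.03-fold and not called. After centring Slc43a3 differed from LSK by −0.15 in the knockouts and was not called. Slc6a20a was at least 4.79-fold below LSK in NcstnKO GMP (means 6.69 and 3.14, adjusted p = 4.99e-04). Slc6a9 was 6.32-fold below LSK in NcstnKO GMP (adjusted p = 8.90e-05), beside 3.48-fold in WT GMP. The other Slc6a9 probe set, above the limit on 9 of 9 arrays, differed by only −0.13 between NcstnKO GMP and LSK (limma adjusted p over all probe sets 0.586). Of the 19 erythroid markers 18 were lower in NcstnKO GMP than in LSK, and their part in these falls was not tested.

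The other falls below LSK in NcstnKO GMP were of genes named above. Slc1a1 was 20.4-fold lower, Slc1a4 2.24-fold and Slc43a2 2.85-fold. The other Slc1a1 probe sets differed by −2.10 (limma adjusted p over all probe sets 0.0707) and −0.63 (0.00746). Slc6a15, Slc6a4 and Slc6a3 were at background in the knockouts and at least 5.98-fold, 3.86-fold and 1.85-fold below LSK, with knockout means of 4.37, 4.24 and 3.96. Slc38a9 differed by −1.25, Slc6a6 by −0.79, Slc6a12 by −0.62, Slc6a17 by −0.61, Slc7a4 by −0.50 and Slc38a3 by −0.40. Slc36a3 was at background in the knockouts and at least 1.01-fold lower. Of these, Slc6a12 (−0.19 and −0.24), Slc6a17 (−0.18 and −0.23), Slc38a3 (−0.09 and −0.02), Slc36a3 (−0.34 and −0.16) and Slc7a4 (0.031 and −0.12) were not called under quantile normalization or centring.
A few were called below LSK in the knockouts and not in WT GMP, and the test of that difference is the comparison between the genotypes. Slc3a1, the heavy chain of the kidney cystine carrier, differed from LSK by −0.56 (adjusted p = 0.0279) and between genotypes by −0.47 (adjusted p = 0.147). The glutamine carriers Slc38a1 and Slc38a2 differed from LSK by −0.34 (adjusted p = 0.0108) and −0.26 (adjusted p = 0.0407), and both turned positive after centring. Slc38a2 and Slc3a1 were not called under either other scaling, where Slc3a1 differed by 0.00052 and −0.18.

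The rises over LSK in NcstnKO GMP were led by Slc36a2, 6.24-fold higher (2.64, SE 0.26, adjusted p = 9.56e-05). Slc36a1 differed from LSK by 0.62, Slc36a4 by 0.36, Slc7a2 by 0.94, Slc38a6 by 0.51 and Slc6a2 by 0.57. The other probe set of Slc38a6 went the other way, by −0.81 (limma adjusted p over all probe sets 0.00509). The other probe sets of Slc6a2 differed by 0.08, 0.06 and 0.16, and were above the limit on at most 2 arrays. Slc6a16 and Slc6a11 were at background in LSK and at least 1.07-fold and 1.04-fold higher in NcstnKO GMP. Slc7a13 and Slc6a14, at background in both groups, differed by 0.63 and 0.31, for which no fold is given. Slc7a6os differed by 0.96 (adjusted p = 0.0264) and its other probe set by −0.63. Slc1a2 differed by 0.61 (adjusted p = 0.0342). Its other probe set above the limit on 9 of 9 arrays differed by −0.02 (limma adjusted p over all probe sets 0.874). The glutamate carrier Slc1a6 and the lysosomal Slc7a14 were at background in LSK and at least 1.11-fold and 1.12-fold higher in the knockouts (adjusted p = 0.0353 and 0.00481).

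Calls of 11 of these 36 genes against LSK were lost when a single array was left out. For Slc36a4 they were LSK 1 or 2 or NcstnKO 1 or 2 (adjusted p up to 0.104), for Slc7a2 LSK 1 or NcstnKO 1 or 2 (up to 0.0678), and for Slc1a2 LSK 1 or 2 or NcstnKO 1 or 3 (up to 0.0978). For Slc6a11 they were LSK 1 or 2 or NcstnKO 2 (up to 0.0623), for Slc3a1 LSK 2 or 3 or NcstnKO 1 or 2 (up to 0.0833), and for Slc7a6os LSK 1 or 3 or NcstnKO 1 or 2 (up to 0.0795). For Slc6a14 they were LSK 2 or 3 or NcstnKO 2 (up to 0.0680), and for Slc1a6 LSK 1 or 3, WT GMP 1 or NcstnKO 1 or 2 (up to 0.110). The calls of Slc7a4, Slc38a2 and Slc6a12 were each lost for 7 of the 9 arrays (up to 0.150, 0.109 and 0.113), and held without LSK 3 and NcstnKO 1 for Slc7a4, LSK 3 and WT GMP 2 for Slc38a2, and LSK 1 and NcstnKO 2 for Slc6a12.

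Genes of the pathways that read amino acid supply were described from lists chosen with earlier results known. Beside the list counts, 5.70% of all genes were called between the genotypes (2.44% higher and 3.26% lower). The shares of all genes were 7.48% higher and 30.5% lower in WT GMP against LSK, and 14.6% and 32.3% in NcstnKO GMP against LSK. Of 23 measured genes of the amino acid response, targets and regulators of ATF4, 1 was higher and 1 lower in NcstnKO than in WT GMP. Psph, the last enzyme of serine synthesis, differed by 0.54 (adjusted p = 0.0378), and Cebpg, a partner of ATF4, by −0.48 (adjusted p = 0.0470). Cebpg was not called after quantile normalization or centring. In WT GMP against LSK 3 were higher and 7 lower, and the share lower was near that of all genes. Among those called were Vldlr at −4.27, Trib3 at −3.19, Ddit4 at −1.08 and Sesn2 at −0.81. After centring the split was 7 higher and 4 lower, and with quantile-normalized values 3 higher and 3 lower. In NcstnKO GMP against LSK 4 were higher and 7 lower, with Vldlr at −3.26, Trib3 at −2.32, Sesn2 at −1.15 and Ddit3 at −1.13. Centring gave 8 higher and 6 lower there, and quantile normalization 6 higher and 7 lower.

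Of 31 measured genes of mTORC1 amino acid sensing, 0 were higher and 1 lower in NcstnKO than in WT GMP. The 1 was Castor2, of the cytosolic arginine sensor family, at −0.998 (adjusted p = 0.0356). In WT GMP against LSK 3 were higher and 13 lower, with Rragd at −1.95, Castor2 at −1.80, Sesn3 at −1.72 and Sesn1 at −1.32. Rragd is a Rag GTPase of the lysosomal complex, and the Sesn genes encode sestrins, of which Sesn2 is known as a leucine sensor. Quantile-normalized values gave 6 higher and 5 lower. In NcstnKO GMP against LSK 7 were higher and 14 lower, with Castor2 at −2.80, Rragd at −2.03, Sesn3 at −2.01 and the Ragulator subunit Lamtor4 at 1.22. That split was 10 higher and 11 lower with quantile-normalized values and 11 higher and 8 lower with centred ones.

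Of 20 measured cytosolic aminoacyl-tRNA synthetases and their scaffold genes, 0 were called between genotypes, and the median was −0.05. The smallest p was that of Eprs at −0.36 (adjusted p = 0.103). In WT GMP against LSK 2 were higher, Eprs at 0.45 and Farsa at 0.43, and Wars was lower at −0.35, but 14 were higher after centring. In NcstnKO GMP against LSK Farsa at 0.59 and Nars at 0.44 were higher and Wars was lower at −0.43, while centring gave 14 higher and 0 lower. Of 19 measured enzymes of glutamine, serine, glycine and arginine use, only Psph was called between genotypes. In WT GMP against LSK 5 were higher and 3 lower, with the branched-chain transaminases Bcat1 at 1.001 and Bcat2 at 0.47 and the arginases Arg1 at −1.15 and Arg2 at −2.16. In NcstnKO GMP against LSK 6 were higher and 5 lower, with Shmt1 at 0.86, Bcat2 at 0.75, Psph at 0.68 and Arg1 at −1.40. Quantile-normalized values gave 7 higher and 2 lower for WT GMP and 9 higher and 4 lower for NcstnKO GMP, and centred values 9 and 2, and 12 and 3. Between the genotypes, fits without the LSK arrays or without the 4 arrays at odds with their labels called 0 genes of any of these 4 lists.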

How the data were processed

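RNA of sorted LSK and GMP cells was measured on 9 Affymetrix arrays. The deposited values are linear probe set intensities made with RMA, per the submitters' processing notes; whether they were normalized as 1 set is not given in the sources used here. They were converted to log2. Of 45101 probe sets, 34945 carried 1 symbol, 932 several, 9160 none and 64 were controls, and 0 columns belonged to no sample. Each gene was represented by its brightest probe set. A model of 3 group means (6 residual degrees of freedom) was fitted with limma 3.58.1 (functions lmFit and eBayes; R 4.3.3), which was also tested on simulated data.

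The 63 members all matched RefSeq by Entrez identifier. Named with the value of every array were all members called between genotypes, the 8 largest called rises and falls between WT GMP and LSK, Slc3a2 and 6 light chains. Members and lists were chosen with earlier results of these data known. The number of arrays limits the precision. Whether the Ncstn probe set lies in the deleted part is not given in the sources used here.

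After subtraction of the group mean, LSK and WT GMP arrays that share a number correlated at 0.219, 0.238 and 0.291 across genes, so those numbers were taken to pair the arrays, from the data and not the labels. NcstnKO arrays did not pair. Alternatives were quantile normalization, centring, leaving out the dimmest 40% of genes, the mean of all probe sets, an intensity trend, only the groups compared, the replicate block, label sex, each array left out, and the 4 arrays at odds with their labels left out. Transcript sex as a covariate was chosen after seeing the data.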

Additional observations from a re-analysis of the deposited data

How the results depend on the processing

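Of the members' calls under every alternative in which they were tested, 9 held between WT GMP and LSK, 14 between NcstnKO GMP and LSK, and 0 between the genotypes. Between genotypes, 4 were called; it was 0 with only the GMP arrays, 0 with label sex, 0 with transcript sex (chosen after seeing the data), 0 without the 4 arrays at odds with their labels, 2 with the replicate block and 0 to 4 with 1 array left out. Between WT GMP and LSK, 28 were called; it was 14 without the dimmest 40% of genes, 11 without the 4 arrays, and 18 to 31 with 1 array left out. Between NcstnKO GMP and LSK, 36 were called; it was 19, 17, and 28 to 35. The filter left only 28 members to test, and the 4 arrays left out left fewer samples; the cause of the other changes was not tested. The replicate block gave 26 calls between WT GMP and LSK and 33 between NcstnKO GMP and LSK. The counts over all genes moved too. Between genotypes 1037 were called, but 6 with only the GMP arrays, 2 with label sex and 2 with transcript sex. It was 370 with the replicate block and 2 to 845 with 1 array left out. Between WT GMP and LSK 6910 became 4174 with the filter and 5374 to 7102 with 1 array left out. Between NcstnKO GMP and LSK 8523 became 5799 and 7379 to 8248.

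Some differences changed sign. Between WT GMP and LSK, centring gave 0.30 for Slc7a5, 0.31 for Slc43a3, 0.30 for Slc38a1, 0.043 for Slc38a3 and 0.033 for Slc6a18, and quantile normalization gave 0.050 for Slc38a3 and 0.047 for Slc6a18. The mean of all probe sets gave −0.035 for Slc6a11 and −0.24 for Slc38a6. Between NcstnKO GMP and LSK, centring gave 0.12 for Slc38a2, 0.29 for Slc6a18 and 0.043 for Slc38a1, and quantile normalization gave 0.031 for Slc7a4, 0.00052 for Slc3a1 and 0.26 for Slc6a18. The mean of all probe sets gave −0.064 for Slc6a11 and −0.15 for Slc38a6. The cause was not tested. Members near the background limit have differences bounded only by the limit.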
